A study of Mus musculus with 108 samples.

Results

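The genes described here are 9 of the 55573 gene rows in the count files: the BET genes Brd2, Brd3 and Brdt, the core subunits of Polycomb repressive complex 2 (PRC2) Ezh2, Eed and Suz12, and the subunits of Polycomb repressive complex 1 (PRC1) Rnf2, Ring1 and Bmi1. They were picked by symbol, with results of these data already known, and the choice names no comparison and no threshold. Their tests below are rows of fits over all genes and are not independent support for the choice.

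RNA was measured in single oocytes of mice, taken from control females and from females in which Exosc10 had been knocked out in the oocyte only (cKO). EXOSC10 is a ribonuclease of the RNA exosome, the complex that trims and degrades RNA. Oocytes were taken at the germinal vesicle stage (GV), before meiosis resumes, after 3 hours of culture in M2 medium (GV3h), or as mature MII eggs from the oviduct. The polyA libraries captured RNA on oligo(dT) beads, so they hold RNA with a poly(A) tail. The RiboMinus libraries were made without that capture, with random hexamer priming, and exist at GV and MII only.

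The polyA libraries held 7 control and 15 cKO oocytes at GV, from 2 control and 2 cKO females. At GV3h they held 8 control and 11 cKO oocytes and at MII 8 control and 15 cKO oocytes, in each case from 3 and 3 females. The RiboMinus libraries held 8 control and 7 cKO oocytes at GV, from 2 and 2 females. At MII they held 3 control oocytes, all of female V1145, and 4 cKO oocytes of 2 females. The driver of the knockout and the strain and age of the females are not given in the sources used here. Each female gave oocytes of 1 genotype and 1 stage, so the female was taken as the replicate and its oocytes' counts were summed. Values are CPM, a gene's counts divided by its library's total as scaled by a TMM factor. They are shares of each library and say nothing of the amount of RNA in an oocyte. Total gene counts per oocyte were 4638718 to 8735914 in polyA and 12319658 to 62675760 in RiboMinus libraries.

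Exosc10 was below all control oocytes in every cKO oocyte of all 5 genotype comparisons. At polyA GV, for example, it lay between 43 and 55.6 CPM in controls and between 0 and 3.26 CPM in cKO oocytes. All 10 oocyte markers (such as Zp3 and Gdf9) averaged over 1 CPM in all 10 groups, with summed levels of 17053 to 27896 CPM in polyA and 5813 to 13435 CPM in RiboMinus oocytes. The 10 markers of granulosa and cumulus cells, which surround the oocyte, summed to 48.3 to 161 CPM in polyA and 70 to 187 CPM in RiboMinus oocytes. Of these 10, 2 to 6 averaged over 1 CPM in the polyA groups and 5 or 6 in the RiboMinus groups. At RiboMinus MII both marker lists stood apart by genotype. The granulosa and cumulus markers summed to 142 to 164 CPM in control and 70 to 102 CPM in cKO oocytes, with Nr5a2 called lower in cKO, and the oocyte markers to 11708 to 12623 and 7353 to 10402 CPM, with 3 of 10 called lower. At polyA MII 5 of the 10 oocyte markers were called higher in cKO, their sums at 18036 to 22814 CPM in control and 22363 to 27896 CPM in cKO oocytes. The part of these markers in the results was not tested.

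BET proteins carry paired bromodomains that bind acetylated lysines on histone tails and recruit transcription factors and elongation factors to active chromatin. PRC2 methylates a lysine of histone H3, with EZH2 as the enzyme, EED as the subunit that reads the mark and SUZ12 as the scaffold. PRC1 ubiquitylates histone H2A through the RING proteins RNF2 and RING1, which work with a PCGF partner such as BMI1. In growing oocytes both Polycomb complexes mark genes that stay silent, and part of the marking is passed to the embryo. A fully grown oocyte stops transcription, so that its mRNA pool changes through stored RNA, its poly(A) tails and its decay.

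Levels were compared between genes per kb of annotated exon, and the order of the genes depends on that choice of length. The summed exons hold 6678 bases for Ezh2 and 4945 for Suz12, while their principal transcripts hold 2787 and 4373 bases. In polyA GV control oocytes Ezh2 stood at 73.3 ± 8.69 CPM per kb (SD, n = 7 oocytes). Bmi1 followed at 63.8 ± 9.13, Suz12 at 58.8 ± 10.3, Eed at 50 ± 5.23, Brdt at 45.8 ± 4.46 and Rnf2 at 40.6 ± 5.32 CPM per kb. Each of these overlapped its next neighbour in range over the oocytes. Brd2 was lower, at 14.3 ± 2.32 CPM per kb, and Brd3 lower again, at 3.9 ± 0.332 CPM per kb, with no overlap between these steps. Ring1 was near the limit of detection, at 0.126 ± 0.0825 CPM per kb. In RiboMinus GV control oocytes Suz12 led, at 164 ± 22.7 CPM per kb (n = 8), its range overlapping that of Bmi1 at 140 ± 15.3. BRDT is best known from the testis. Here its mRNA was the highest of the 3 BET genes per kb of annotated exon in all 10 groups. It was 45.8 CPM per kb against 14.3 for Brd2 in polyA GV controls and 113 against 69.6 in RiboMinus MII cKO oocytes. The margin depends on the length used. Annotated exons sum to 5115 bases for Brdt and 7826 for Brd2, while their principal transcripts hold 4745 and 4657 bases. Undivided by length, the RiboMinus MII cKO means were 576 CPM for Brdt and 544 CPM for Brd2.

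The polyA libraries depend on the 3′ end of each mRNA, so the ends of the annotated transcripts are shown for the 4 genes with the largest polyA change from GV to MII in cKO oocytes. They are from GENCODE M21 (GRCm38), 30 bases each, 5′ to 3′ in the sense of the mRNA and written with T. Capitals mark the poly(A) signal (AATAAA or ATTAAA, within 50 bases of the end) and, where it lies in the window, the cytoplasmic polyadenylation element (TTTTAT or TTTTAAT, within 100 bases before the signal, overlap with the signal allowed), a motif known to direct tail lengthening during oocyte maturation.
Brd2: gtctaacatgtaAATAAAgaaaatattatt
Brdt: ttttctactTTTTAATTAAAaactttatat
Bmi1: aaaatttgtcTTTTAATAAAacaacagaaa
Ring1: ttgagtgggtggATTAAAggtggaggcagg
The windows are at chr17:34112033-34112062 (minus strand), chr5:107387028-107387057 (plus strand), chr2:18686596-18686625 (plus strand) and chr17:34020805-34020834 (minus strand). In Brdt and Bmi1 the element runs into the signal, sharing its first bases. Eed holds TTTTAT 23 bases before its signal, so 3 of the 9 genes hold an element (33.3%), against 2191 of 14500 tested genes with a principal transcript (15.1%). A signal was found in 7 of the 9 (77.8%) and in 76.9% of those tested genes. Suz12 and Rnf2 hold neither signal in the last 50 bases of the annotated transcript. The ends used in these oocytes were not measured.

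The genotype comparisons ask how the absence of Exosc10 shifts these mRNAs at each stage. A gene was called when its adjusted p over all genes tested was under 0.05 in edgeR's quasi-likelihood test on female sums, and all 9 genes passed the filter on low counts in both library types. At polyA GV 3 of the 9 were called, Brd3 higher and Ezh2 and Suz12 lower in cKO oocytes, where 7.38% of all genes were called, 3.47% higher and 3.91% lower. At GV3h 5 were called, Brd3 and Ring1 higher and Ezh2, Suz12 and Bmi1 lower, against 25.2% of all genes, 12.5% higher and 12.7% lower. At polyA MII only Brd2 was called, higher, against 18.9% of all genes, 11.9% higher and 6.99% lower. In the RiboMinus libraries none was called at GV, where the test called 0.0315% of all genes, 0.0275% higher and 0.00393% lower, and 4 of the 9 had an unadjusted p under 0.05 against 14.7% of all genes. DESeq2 called 3 of them there, Brd2, Brd3 and Ezh2, and 6.19% of all genes. At RiboMinus MII 3 were called, Brd2 and Ring1 higher and Ezh2 lower, against 7.3% of all genes, 3.61% higher and 3.69% lower. Its control group was 1 female, V1145, and the spread of that group was borrowed from the others. The RiboMinus MII calls therefore do not separate an effect of genotype from a peculiarity of V1145, unlike those of the polyA comparisons. RiboMinus MII is also the comparison in which the summed granulosa and oocyte markers were both lower in all cKO oocytes. The median log2 fold change of the 9 genes was −0.01, −0.19 and −0.09 in the polyA comparisons at GV, GV3h and MII, beside 0.08, 0.07 and 0.12 over all genes.

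Separation of the females was also counted without a threshold. All cKO females were above all control females for 2 of the 9 genes at polyA GV, 3 at GV3h and 1 at MII, beside 28.2%, 27.1% and 19.3% of all genes. They were all below for 3, 4 and 2 genes, beside 23.8%, 24.3% and 13.6%. In RiboMinus libraries they were above for 3 genes at GV and 4 at MII, beside 30.4% and 37.2%, and below for 4 and 2 genes, beside 26.2% and 34.4%. Ezh2 was the only 1 of the 9 to be separated in the same direction in all 5 comparisons. The share of all genes separated alike in all 5 was not counted, and RiboMinus MII has 1 control female.

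**Figure D1:**
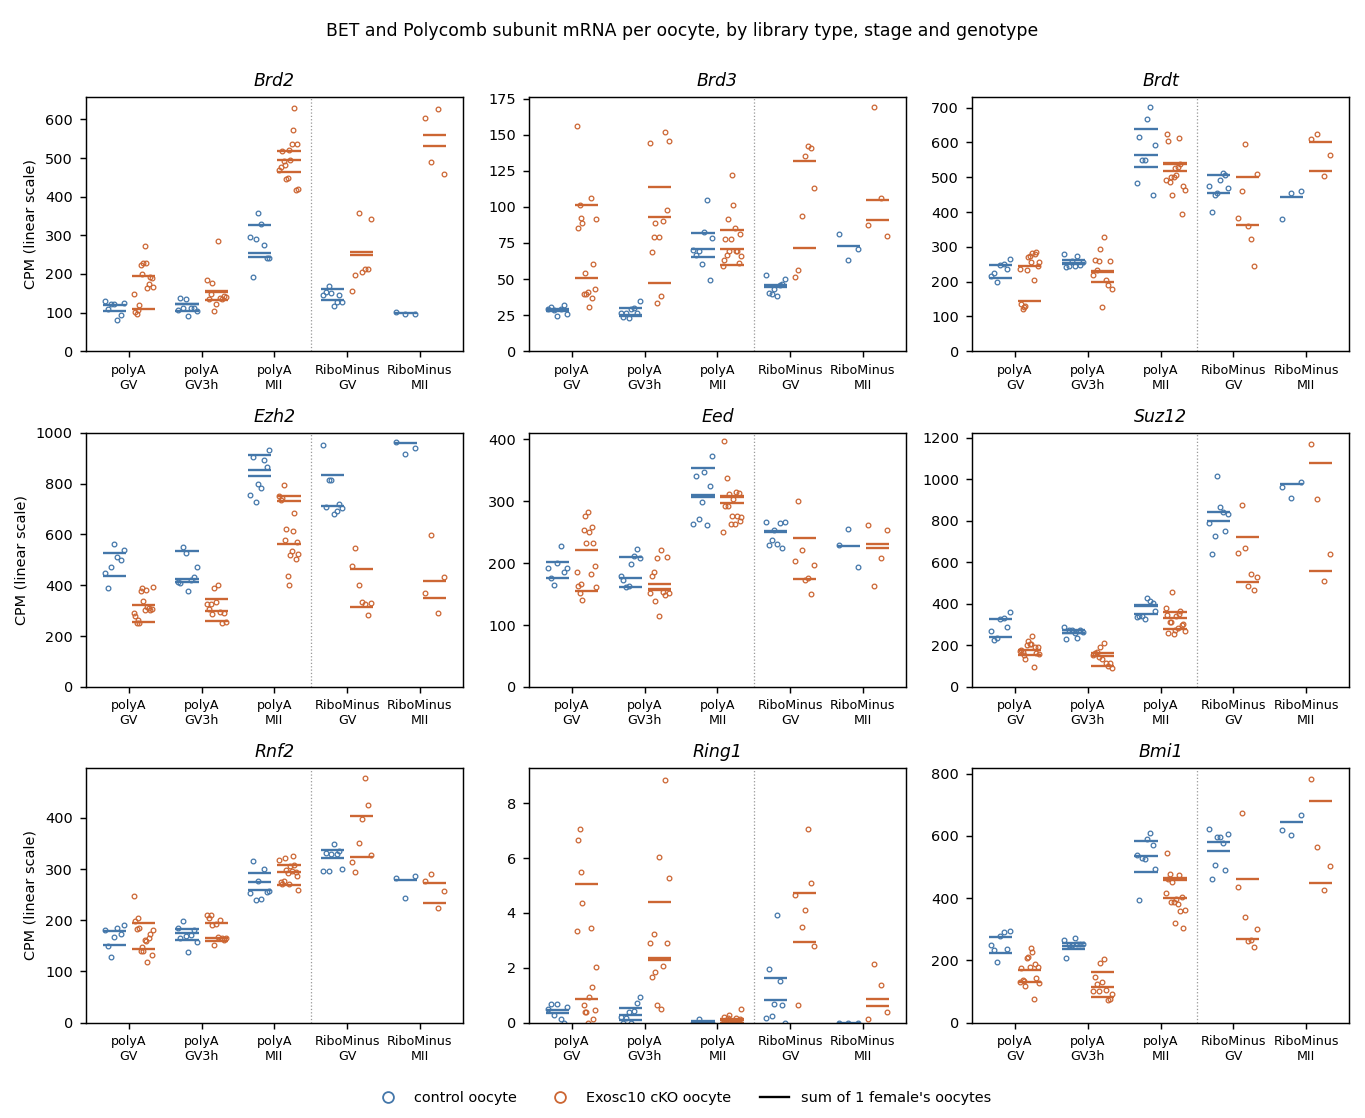
CPM (vertical axes, linear, starting at 0) of the 9 genes in each oocyte (circles) and in each female's summed oocytes (bars), by library type and stage, controls in blue and cKO in orange. Brd2 cKO oocytes lie above all controls at MII in both library types, and in polyA GV Brd3 runs from 30.5 to 156 CPM in cKO oocytes and from 24.7 to 31.7 CPM in controls.

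Brd2 (ENSMUSG00000024335, chr17:34112023-34122634, minus strand, GRCm38) encodes a broadly expressed BET protein. In polyA MII libraries its level ran from 192 to 359 CPM over the control oocytes, with a median of 283, and from 418 to 631 CPM over the cKO oocytes, with a median of 492. All 15 cKO oocytes were above all 8 controls. How many of all genes separate by oocyte was not counted, here and for the genes below. Oocytes of 1 female are not independent, and fits with oocytes as replicates leave out the spread between females. By female Brd2 stood at 253, 326 and 243 CPM in controls and 463, 496 and 518 CPM in cKO. The log2 fold change was 0.84 ± 0.18 (SE; 95% interval 0.47 to 1.22, edgeR adjusted p = 0.00424), and Brd2 stayed called without any single female of these groups. In RiboMinus MII libraries the 3 control oocytes held 102, 95.7 and 95 CPM and the 4 cKO oocytes 603, 489, 627 and 459 CPM. The groups were far apart, with a log2 fold change of 2.45 ± 0.29 (95% interval 1.81 to 3.10, edgeR adjusted p = 0.0127). The controls came from 1 female, so there genotype and female cannot be told apart, and that group's spread was taken from the other groups. At GV the differences were smaller and not called: 0.44 in polyA (adjusted p = 0.232), 0.34 at GV3h (0.175) and 0.80 in RiboMinus (0.156, edgeR). The groups of 2 females keep 1 when the other is left out, and the spread then comes from the other groups, here and for the genes below. The polyA GV value rested on which cKO female was kept: the 5 oocytes of V857 lay between 96.7 and 147 CPM and the 10 of V888 between 164 and 272 CPM, without overlap. Without V857 the log2 fold change was 0.78 and called (adjusted p = 0.0367), and without V888 it was −0.03. With both females kept it was called with oocytes as replicates (0.61, adjusted p = 0.0101; range over the alternatives 0.0101 to 0.96). At GV3h Brd2 was called with library totals (0.57, adjusted p = 0.0259), with oocytes as replicates (0.43, 0.0177) and in the fit on these groups alone (0.36, 0.0386), in a range of 0.0177 to 0.389. At RiboMinus GV the 2 control females were at 160 and 132 CPM and the 2 cKO females at 258 and 248 CPM. Brd2 was called there by DESeq2 (0.81, adjusted p = 0.0112), with the female as a random effect (0.74, 0.033) and with oocytes as replicates (0.75, 0.00254), in a range of 0.00254 to 0.906. Of the bases in Brd2 exons, 9.78% also lie in exons of H2-DMa or CR974462.3 on the opposite strand, and the strand setting of the counting is not given in the sources used here, so reads there cannot be told apart.

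Brd3 (ENSMUSG00000026918, chr2:27445579-27507662, minus strand) encodes a further BET protein known for binding acetylated transcription factors. In polyA GV oocytes the controls lay within 24.7 to 31.7 CPM (median 29.2) and the cKO oocytes between 30.5 and 156 CPM (median 60.2). Of the 15 cKO oocytes 14 were above the highest control. The 2 cKO females differed: the 5 oocytes of V857 ran from 85.7 to 156 CPM and the 10 of V888 from 30.5 to 106 CPM, with sums of 101 and 50.4 CPM, against 29.2 and 27.9 CPM in the control females. The log2 fold change was 1.40 ± 0.35 (95% interval 0.66 to 2.14, edgeR adjusted p = 0.0253). It fell to 0.82 without V857 (adjusted p = 0.231), and the call was also lost without control female V856 (1.44, adjusted p = 0.119) or V889 (1.39, adjusted p = 0.197), and in the fit on these groups alone (1.39, adjusted p = 0.161). Over all its alternatives the adjusted p ran from 4.99e-06 to 0.231.

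At GV3h Brd3 was 25.1, 24.7 and 30 CPM in the control females and 93.3, 47.5 and 114 CPM in the cKO females. The groups did not overlap, as held for 27.1% of all genes in that direction. The log2 fold change was 1.67 ± 0.29 (edgeR adjusted p = 0.000772), called under all 14 alternatives. RiboMinus GV libraries gave a similar size, 1.17 ± 0.30, but no call (edgeR adjusted p = 0.155), with controls at 44.3 and 45.8 CPM and cKO females at 71.5 and 132 CPM. Leaving out 1 female at a time gave 0.66 to 1.55, the highest without cKO female V1126. With all females kept Brd3 was called there with no filter on low counts (1.17, adjusted p = 0.00193), by DESeq2 (1.20, 0.0138), with the female as a random effect (1.14, 0.017) and with oocytes as replicates (1.23, 0.000701), in a range of 0.000701 to 0.875. At polyA MII the genotypes overlapped, with control females at 70.6, 82 and 65.3 CPM and cKO females at 59.8, 71 and 84 CPM. The log2 fold change there was −0.02 (95% interval −0.61 to 0.57). At RiboMinus MII it was 0.42 (−0.42 to 1.27, edgeR adjusted p = 0.467), with the control female at 73.2 CPM and the cKO females at 105 and 90.8 CPM. Of the 4 cKO oocytes 3 were above all 3 controls.

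Brdt (ENSMUSG00000029279, chr5:107331159-107387058, plus strand) was not called in any genotype comparison. Its log2 fold changes were −0.24 (95% interval −0.65 to 0.16) at polyA GV, −0.22 (−0.55 to 0.11) at GV3h and −0.12 (−0.45 to 0.21) at MII. In RiboMinus libraries they were −0.15 (−0.67 to 0.37) at GV and 0.34 (−0.31 to 0.98) at MII. Female V857 again stood apart at polyA GV, at 145 CPM beside 245 CPM in V888 and 211 and 249 CPM in the control females. Without V888, with V857 as the only cKO female, the difference was −0.67 and called (edgeR adjusted p = 0.0216, range over the alternatives 0.0216 to 0.903).

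Ezh2 (ENSMUSG00000029687, chr6:47530139-47595341, minus strand), the PRC2 methyltransferase, had a lower value in cKO than in control females in all 5 comparisons. In polyA GV oocytes it ran from 390 to 562 CPM (median 500) in controls and from 251 to 393 CPM (median 306) in cKO, and 14 of the 15 cKO oocytes were below the lowest control. By female the values were 437 and 527 CPM against 256 and 322 CPM. This gave a log2 fold change of −0.74 ± 0.19 (edgeR adjusted p = 0.0274). The call was lost without V857 (−0.59, adjusted p = 0.165), V856 (−0.87, 0.058) or V889 (−0.59, 0.247), under scaling by library totals (−0.55, 0.103) and in the fit on these groups alone (−0.75, 0.173), in a range of 1.94e-05 to 0.247 over the alternatives.

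At GV3h the control females had 411, 533 and 425 CPM of Ezh2 and the cKO females 299, 347 and 261 CPM, without overlap, as held for 24.3% of all genes in that direction. The log2 fold change was −0.59 ± 0.15 (edgeR adjusted p = 0.0101). The call was lost without V993 (−0.50, adjusted p = 0.0569), without V982 (−0.47, 0.0617) and with library totals (−0.37, 0.113), in a range of 8.25e-05 to 0.113. At polyA MII the females again did not overlap, between 830 and 911 CPM in controls and at 730, 752 and 563 CPM in cKO, but the difference of −0.34 was not called (edgeR adjusted p = 0.126). It was called with the female as a random effect (−0.40, adjusted p = 0.00442) and with oocytes as replicates (−0.52, 0.000309), in a range of 0.000309 to 0.374. The oocytes of V841 (736 to 750 CPM) and V842 (744 to 794 CPM) lay within the control range of 726 to 932 CPM. The 11 oocytes of V897 lay below it, at 401 to 683 CPM.

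In RiboMinus libraries the Ezh2 difference was −0.99 ± 0.25 at GV and −1.33 ± 0.29 at MII. At GV the control oocytes held 679 CPM or more (median 713) and the 7 cKO oocytes 282 to 548 CPM. The oocytes did not overlap, yet the edgeR adjusted p was 0.145. With all females kept, Ezh2 was called there with no filter (−0.99, adjusted p = 0.00594) and by DESeq2 (−0.98, 0.0107). It was also called with the random effect (−0.99, 0.00565) and with oocytes as replicates (−0.99, 0.000394), in a range of 0.000394 to 0.834. Leaving out 1 female at a time gave −1.29 (without V1126) to −0.74. At MII the 3 control oocytes held 965, 916 and 940 CPM and the 4 cKO oocytes 370, 596, 291 and 433 CPM (edgeR adjusted p = 0.035; −1.25 and 0.0867 in the fit on these groups alone, range 0.000211 to 0.0867). Those 3 controls are all of V1145, so the Ezh2 difference at RiboMinus MII may belong to genotype or to that animal. Of the Ezh2 exon bases 2.61% overlap the opposite-strand lincRNA Gm26625. Opposite-strand genes also share 6.82% of the exon bases of Eed, 3.83% of Rnf2 and 3.6% of Suz12.

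Eed (ENSMUSG00000030619, chr7:89954654-89980983, minus strand), which binds the methylated histone and stimulates the enzyme, was not called in any genotype comparison. Its log2 fold changes were −0.01 (95% interval −0.37 to 0.36), −0.19 (−0.49 to 0.11) and −0.09 (−0.38 to 0.21) at polyA GV, GV3h and MII. At RiboMinus GV the value was −0.28 (−0.79 to 0.23), with 251 and 252 CPM in the control females and 240 and 174 CPM in the cKO females, and 6 of the 7 cKO oocytes were below the lowest control. At RiboMinus MII it was 0.00 (−0.62 to 0.62), with 228 CPM in the control female and 231 and 224 CPM in the cKO females.

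Suz12 (ENSMUSG00000017548, chr11:79993106-80034123, plus strand), the scaffold of PRC2, was called lower in cKO oocytes in the polyA GV and GV3h libraries, as Ezh2 was. At GV the control oocytes ran from 228 to 359 CPM (median 287) and the cKO oocytes from 93.3 to 247 CPM (median 176), the females at 242 and 326 against 154 and 179 CPM. Suz12 had a log2 fold change of −0.77 ± 0.21 (edgeR adjusted p = 0.0339). It was not called without V857 (−0.67, adjusted p = 0.173), without V856 (−0.98, 0.05) or V889 (−0.53, 0.336), with library totals (−0.58, 0.0968) or in the fit on these groups alone (−0.78, 0.171), in a range of 0.000159 to 0.336 over the alternatives. At GV3h all 11 cKO oocytes, between 92.1 and 213 CPM, were below all 8 controls, between 232 and 289 CPM. The log2 fold change there was −0.92 ± 0.17 (edgeR adjusted p = 0.00116), called under all 14 alternatives. At polyA MII it was −0.22 (95% interval −0.58 to 0.14), and in RiboMinus libraries −0.42 (−1.15 to 0.31) at GV and −0.26 (−1.14 to 0.62) at MII. With oocytes as replicates Suz12 was called at polyA MII (−0.25, adjusted p = 0.0369) and at RiboMinus GV (−0.43, 0.02), in ranges of 0.0369 to 0.711 and 0.02 to 1. No other alternative called it in either, and that setting leaves out the spread between females. At RiboMinus MII the cKO females were at 1080 and 559 CPM, on either side of the control female at 979 CPM, and the difference was −0.79 without V1166 and 0.14 without V1167.

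Rnf2 (ENSMUSG00000026484, chr1:151458004-151500955, minus strand), the main H2A ubiquitin ligase of PRC1, was not called in any genotype comparison. The log2 fold changes were 0.04 (95% interval −0.31 to 0.39), 0.00 (−0.28 to 0.29) and 0.07 (−0.21 to 0.36) at polyA GV, GV3h and MII. At GV3h, for instance, its level was 175, 183 and 161 CPM in control females and 195, 159 and 166 CPM in cKO females. In RiboMinus libraries the log2 fold change was 0.14 (−0.34 to 0.63) at GV and −0.14 (−0.73 to 0.46) at MII, where the control female was at 278 CPM and the cKO females at 273 and 233 CPM.

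Ring1 (ENSMUSG00000024325, chr17:34020792-34024680, minus strand), the paralog of Rnf2, was scarce. At polyA GV the 7 control oocytes held 18 counts in all, 0 to 4 each, and the 15 cKO oocytes held 276 counts, 0 to 51 each. The 2 cKO females differed, at 5.05 CPM in V857 and 0.875 CPM in V888, beside 0.472 and 0.338 CPM in the control females, and the gene was not called (edgeR adjusted p = 0.0741). Ring1 had a log2 fold change of 2.86, and of 1.11 to 3.63 without 1 female (3.63 with V857 as the only cKO female). With both females kept it was called with no filter on low counts (2.92, adjusted p = 0.0414), by DESeq2 (2.87, 0.0366) and with oocytes as replicates (2.51, 0.0163), in a range of 0.0163 to 0.622. At GV3h the controls held 15 counts over 8 oocytes and the cKO oocytes 291 over 11. By female this was 0.0916, 0.269 and 0.528 CPM against 2.3, 2.35 and 4.4 CPM, a log2 fold change of 3.24 ± 0.80 (edgeR adjusted p = 0.00827). The 2.35 CPM are of V983, whose 3 oocytes held 0.51, 0.629 and 6.04 CPM, while control oocytes reached 0.915 CPM.

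At polyA MII Ring1 was almost gone in both genotypes, with 1 count over 8 control oocytes and 9 counts over 15 cKO oocytes. In RiboMinus libraries at GV it had 140 counts over 8 control and 506 over 7 cKO oocytes, and was not called (edgeR adjusted p = 0.313; with oocytes as replicates 0.0454, range 0.0454 to 1). At RiboMinus MII the 3 control oocytes held 0 counts and the 4 cKO oocytes 7, 43, 38 and 10 counts. The cKO level was at least 12-fold higher than a floor of 3 counts over the control group, and called (adjusted p = 0.0297, edgeR). The call was lost with the female as a random effect (adjusted p = 0.168) and in the fit on these groups alone (0.233), in a range of 0.00137 to 0.233. The floor covers counting error only, and these 3 controls are of 1 female, V1145.

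Bmi1 (ENSMUSG00000026739, chr2:18677018-18686629, plus strand), a PCGF partner of the RING ligases, was lower in cKO oocytes at polyA GV3h. All 11 cKO oocytes, from 74 to 205 CPM (median 105), were below all 8 controls, from 207 to 271 CPM (median 252). By female the levels were 237, 247 and 256 CPM against 113, 161 and 83.3 CPM. Bmi1 had a log2 fold change of −1.05 ± 0.19 (95% interval −1.45 to −0.65, edgeR adjusted p = 0.00105) and was called under all 14 alternatives. At polyA GV the females did not overlap either, at 223 and 275 against 131 and 170 CPM, with a log2 fold change of −0.72 and no call (edgeR adjusted p = 0.0663). DESeq2 called it there (−0.69, adjusted p = 0.0485), as did 3 other alternatives, in a range of 0.00232 to 0.387. At polyA MII it was −0.28 (95% interval −0.68 to 0.12). Of the alternatives only oocytes as replicates, which leaves out the spread between females, called it there (−0.42, adjusted p = 0.000646, range 0.000646 to 0.55). Of those 15 cKO oocytes 11 were of V897. In RiboMinus libraries the log2 fold change was −0.63 (−1.34 to 0.07) at GV and −0.15 (−1.01 to 0.70) at MII. At RiboMinus GV Bmi1 was called with the female as a random effect (−0.69, adjusted p = 0.0382) and with oocytes as replicates (−0.64, 0.0151), in a range of 0.0151 to 1. Without V1126 it was −1.08 there and without V1131 −0.29. At RiboMinus MII the cKO females were at 711 and 450 CPM, on either side of the control female at 646 CPM, and the difference was −0.51 without V1166 and 0.14 without V1167.

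**Figure D2:**
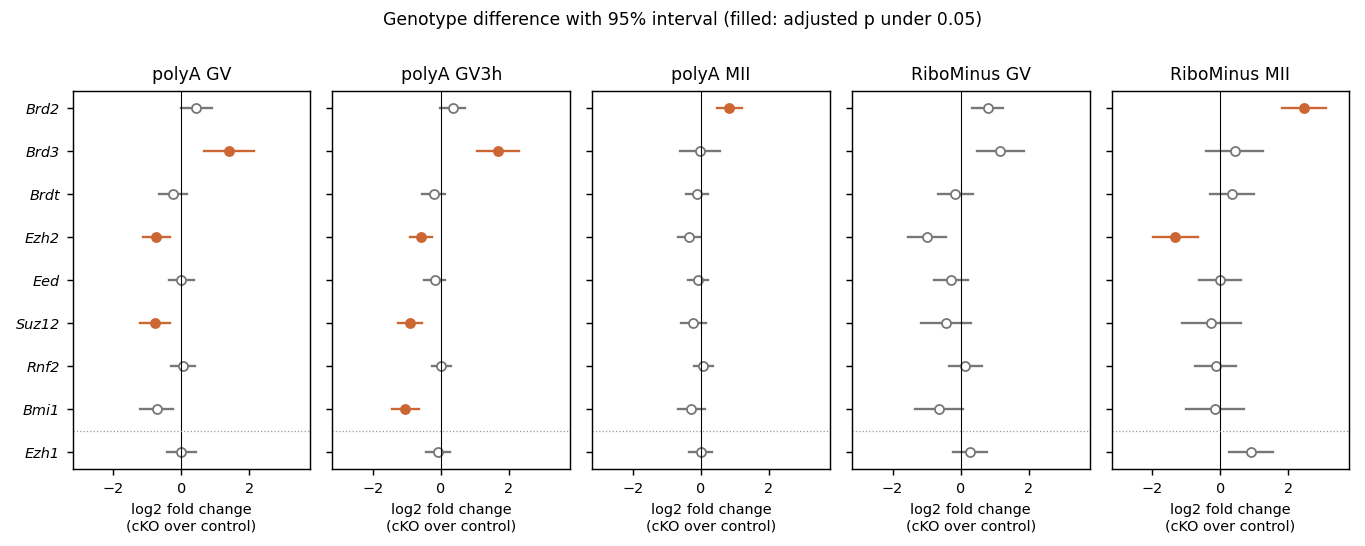
Log2 fold change of cKO over control (horizontal axes) with its 95% interval from the edgeR fit on female sums, for 8 of the genes and, below the dotted line, Ezh1, in the 5 genotype comparisons; filled orange points have an adjusted p under 0.05. Brd3 lies right of 0 at polyA GV and GV3h and at 0 at polyA MII, Brd2 lies farthest right at RiboMinus MII, and Ezh2 lies left of 0 in all 5 panels; Ring1 is left out because its fold depends on counts near 0.

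A close relative outside the 9 genes was read beside them. Ezh1, the second PRC2 methyltransferase, was not called in any of the 5 genotype comparisons. At polyA GV its log2 fold change was 0.00 (95% interval −0.42 to 0.42), beside −0.74 for Ezh2. At RiboMinus MII it was 0.90 (95% interval 0.27 to 1.54, edgeR adjusted p = 0.0819), beside −1.33 for Ezh2. The control female was at 60.7 CPM of Ezh1 there and the cKO females at 122 and 105 CPM, and all 4 cKO oocytes were above all 3 controls.

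The stage comparisons ask how the pool of these mRNAs changes as the oocyte matures. Between GV and GV3h none of the 9 was called in either genotype. edgeR called 0% of all genes there, no member had an unadjusted p under 0.05 (2.21% of all genes did in controls and 1.94% in cKO), and DESeq2 called no member and 16 and 17 genes of the whole table. Between GV and MII in the polyA data 7 of the 9 rose and Ring1 fell in controls, where 42.5% of all genes were called, 16.8% higher and 25.7% lower. In cKO oocytes 7 rose and Ring1 fell, against 44.7% of all genes, 18.1% higher and 26.6% lower. The median log2 fold change of the 9 genes was 0.84 in controls and 0.96 in cKO, beside −0.26 and −0.33 over all genes. Over the same step the median of the granulosa and cumulus markers was −1.39 in controls, with Cyp19a1 called higher and Inha lower, and −1.69 in cKO, with Cyp19a1 called higher and Amh, Inha, Inhba and Nr5a2 lower. Of the 10 oocyte markers 2 were called higher and 4 lower in controls and 5 higher and 4 lower in cKO, and the part of these markers was not tested. Scaling by library totals moved the median of all genes to −0.69 and −0.86 and the number of called members to 5 in each genotype.

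Brdt rose from 211 and 249 CPM in the GV control females to 565, 640 and 530 CPM in the MII control females, a log2 fold change of 1.33 ± 0.18 (edgeR adjusted p = 2e-05). In cKO females it rose by 1.45 ± 0.18 (adjusted p = 9.58e-06). Brd2 rose by 1.29 ± 0.20 in controls (edgeR adjusted p = 9.16e-05) and by 1.70 ± 0.21 in cKO (7.54e-06). Bmi1 rose from 223 and 275 to 483, 585 and 536 CPM in controls, by 1.11 ± 0.22 (edgeR adjusted p = 0.000605), and by 1.55 ± 0.22 in cKO (3.33e-05). For these 3 genes the GV and MII females of a genotype were well apart.

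Ezh2 rose by 0.84 ± 0.17 in controls and 1.24 ± 0.18 in cKO, Eed by 0.78 ± 0.16 and 0.69 ± 0.16, and Rnf2 by 0.74 ± 0.15 and 0.77 ± 0.15 (edgeR adjusted p between 3.37e-05 and 0.00208). With library totals the rises of Eed (0.35 and 0.17) and Rnf2 (0.31 and 0.25) were not called in either genotype, nor that of Ezh2 in controls (0.42). Eed in cKO was also not called without V857 (0.45, adjusted p = 0.0523, range over the alternatives 4.66e-05 to 0.403). Suz12 rose in cKO (0.96 ± 0.19, edgeR adjusted p = 0.000757; with library totals 0.44 and 0.0692). In controls its change was 0.41 (95% interval 0.00 to 0.81, adjusted p = 0.0973). Its sign flipped to −0.02 with library totals, a scaling that moved all genes down, and Suz12 stood 0.67 above the median of all genes under TMM, DESeq2 size factors and library totals. The control change was called with DESeq2 size factors (0.49, adjusted p = 0.0492), by DESeq2 (0.49, 0.0398), with oocytes as replicates (0.33, 0.0122) and without V889 (0.67, 0.0425), in a range of 0.0122 to 0.951.

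In controls Brd3 rose from 29.2 and 27.9 CPM at GV to 70.6, 82 and 65.3 CPM at MII, a log2 fold change of 1.35 ± 0.33 (edgeR adjusted p = 0.00339). In cKO females it went from 101 and 50.4 CPM to 59.8, 71 and 84 CPM, a change of −0.08 (95% interval −0.74 to 0.58) and not called. Its sign rested on which GV cKO female was kept, at 0.50 without V857 and −0.50 without V888. The interaction of stage and genotype was −1.43 ± 0.44 (95% interval −2.37 to −0.48) and was not called (edgeR adjusted p = 0.116). It was called with no filter on low counts (−1.47, adjusted p = 0.00148), by DESeq2 (−1.48, 0.0214) and with oocytes as replicates (−1.21, 0.00295). Over the alternatives the adjusted p ran from 0.00148 to 0.51. Leaving out 1 female at a time gave −1.84 (without V888) to −0.83. No member was called in the 3 interactions, where edgeR called 0%, 1.94% (1.59% higher and 0.353% lower) and 0% of all genes. An unadjusted p under 0.05 was found for Brd3 alone in the polyA GV to MII interaction and for 2 members in the RiboMinus one, beside 16% and 14.2% of all genes. DESeq2 called 1 member in each of these, where it called 1121 and 1127 genes of the whole table. For Brd2 the polyA interaction was 0.41 and not called (edgeR adjusted p = 0.499). Without 1 female at a time it ran from 0.06 to 0.88, the highest without V888.

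Ring1 went from 18 counts over 7 control oocytes at GV to 1 count over 8 at MII in polyA libraries (edgeR adjusted p = 0.015). In cKO oocytes it went from 276 counts over 15 to 9 over 15, a log2 fold change of −5.13 ± 0.93 (edgeR adjusted p = 0.00032). Leaving out 1 female at a time gave −6.07 to −3.39. In controls the log2 fold change was −4.05, and −6.53 to −3.70 without 1 female at a time. That call was lost without V856 (−3.83, adjusted p = 0.0589) and with the female as a random effect (−2.07, 0.119), in a range of 0.00703 to 0.119.

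**Figure D3:**
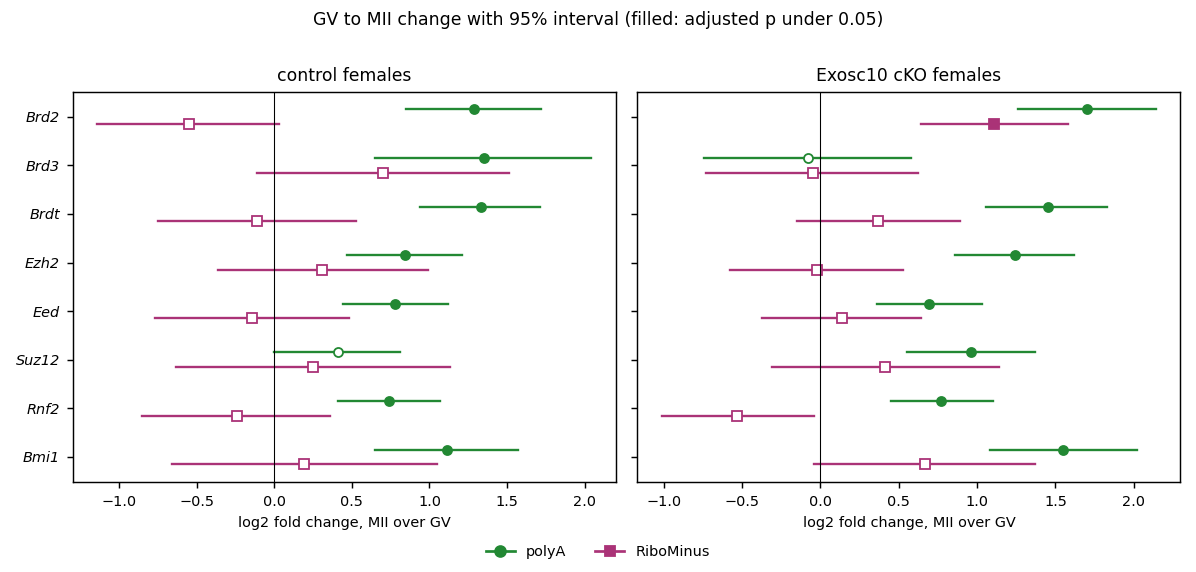
Log2 fold change from GV to MII (horizontal axes) with its 95% interval in polyA (green circles) and RiboMinus libraries (purple squares), for 8 of the genes in control (left) and cKO females (right); filled points have an adjusted p under 0.05. The polyA points lie right of 0 for all genes but Brd3 in cKO, while the RiboMinus points lie on either side of 0 and only Brd2 in cKO is filled.

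In RiboMinus libraries the same step from GV to MII looked different. In controls none of the 9 was called, where edgeR called 0.00787% of all genes; 1 had an unadjusted p under 0.05, and DESeq2 called Ring1. In cKO only Brd2 was called, higher, where 2.32% of all genes were called, 0.61% higher and 1.71% lower. The median change of the 9 genes was −0.11 in controls and 0.14 in cKO, beside −0.16 and 0.00 over all genes. The intervals are wide in these 7 females: for Brdt in controls the change was −0.11 (95% interval −0.75 to 0.53) and for Bmi1 0.19 (−0.66 to 1.05). The library types were prepared with different kits and scaled separately, so no test was made between them.

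Brd2 stood out in that pairing by value. In controls its mean went from 112 to 278 CPM in polyA but from 142 to 97.7 CPM in RiboMinus oocytes, so that polyA over RiboMinus moved from −0.35 at GV to 1.51 at MII on the log2 scale. In cKO it went from 173 to 497 CPM in polyA and from 241 to 544 CPM in RiboMinus oocytes, and the ratio was −0.47 at GV and −0.13 at MII. The RiboMinus change was −0.55 ± 0.26 in controls (edgeR adjusted p = 0.359) and 1.11 ± 0.21 in cKO (0.0396). The control change was called with oocytes as replicates (−0.54, adjusted p = 0.00289) and in the fit on these groups alone (−0.55, 0.0426), in a range of 0.00289 to 0.843. The cKO call was lost without GV female V1126 (1.13, adjusted p = 0.0631) or V1131 (1.07, 0.145), without MII female V1166 (1.08, 0.077) and in the fit on these groups alone (1.13, 0.135), in a range of 3.82e-05 to 0.145. The interaction was 1.66 ± 0.33 and not called (edgeR adjusted p = 0.146). It was called with no filter on low counts (1.69, adjusted p = 0.00636), by DESeq2 (1.71, 0.000639), with the female as a random effect (1.75, 0.0054) and with oocytes as replicates (1.72, 0.000243), in a range of 0.000243 to 0.556. Here too the MII controls are the oocytes of V1145 alone. With library totals the Brd2 ratios were −0.24, 1.29, −0.35 and −0.43 in the same order of groups.

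For Brdt the log2 ratio of polyA over RiboMinus rose in value to 0.42 at MII in controls (means of 576 and 432 CPM, against 234 and 470 CPM at GV) and went from −0.89 to −0.16 in cKO. For Bmi1 it moved from −1.13 to −0.25 and from −1.13 to −0.48, and for Rnf2 from −0.94 to −0.02 and from −1.13 to 0.16. Suz12 kept a low ratio, −1.48 and −1.37 in controls and −1.75 and −1.33 in cKO at GV and MII. In controls and cKO the ratio of Brd3 went from −0.64 to 0.02 and from −0.56 to −0.52. That of Eed went from −0.37 to 0.46 and from 0.04 to 0.42, and that of Ezh2 from −0.63 to −0.18 and from −0.28 to 0.51. The move over all genes was not computed, and the RiboMinus MII controls are oocytes of V1145 alone. The moves depended on the scaling. Scaled by library totals, the Bmi1 ratio was −1.03 at GV and −0.46 at MII in controls, and −0.97 and −0.76 in cKO. The Brdt ratio was −0.90 and 0.20 in controls, and −0.75 and −0.46 in cKO. That of Rnf2 ended at −0.23 in controls and −0.13 in cKO at MII. Suz12 then went the other way in controls, from −1.37 to −1.58, and stood at −1.60 at both stages in cKO.

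Other genes of the same pathways came from lists chosen with results of these data known, and their counts are descriptions. Those at RiboMinus MII rest on V1145 as the only control, here and for the lists below, and do not separate genotype from that animal. At polyA GV, 3.47% of all genes were called higher and 3.91% lower. The shares were 12.5% higher and 12.7% lower for GV3h, 11.9% and 6.99% for polyA MII, and 3.61% and 3.69% for RiboMinus MII. Of 9 BET partners and P-TEFb genes, edgeR called Cdk9 alone higher at polyA GV, 2 higher and 3 lower at GV3h, 1 higher and 1 lower at polyA MII, and 2 higher and 1 lower at RiboMinus MII. Cdk9, the P-TEFb kinase, was 3.85, 2.06 and 2.98 CPM in control and 14.9, 7.83 and 27.6 CPM in cKO females at GV3h (log2 fold change 2.50 ± 0.43, edgeR adjusted p = 0.000711). At polyA MII Cdk9 was 0.08 (edgeR adjusted p = 0.918), and at RiboMinus MII 3.76 ± 0.74 (0.0266), with 2.1 CPM in the control female and 18.7 and 37.9 CPM in the cKO females. Hexim1, which holds P-TEFb inactive, was called higher in 3 comparisons, with 0.183, 1.08 and 0.336 CPM in control and 3.05, 1.85 and 5.41 CPM in cKO females at GV3h. At polyA MII, where it was called, the control females held 0, 0 and 1 counts and the cKO females 1, 16 and 21. The females overlapped there, with 0.0831 CPM in control V896 and 0.0799 CPM in cKO V841. At RiboMinus MII Hexim1 had 0 counts in the control female and 321 and 100 counts in the cKO females.

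Of 27 other bromodomain genes 1 was called higher and 3 lower at polyA GV, 2 higher and 12 lower at GV3h, 1 higher and 3 lower at polyA MII, and 1 higher and 4 lower at RiboMinus MII. At GV3h, where 12.5% of all genes were called higher and 12.7% lower, their median log2 fold change was −0.47, beside 0.07 over all genes. Trim28, a corepressor of transposable elements, was called higher in 4 of the 5 comparisons, by 1.07 ± 0.21 at polyA GV (75.5 and 71.5 against 167 and 141 CPM, edgeR adjusted p = 0.00923). Smarca2, an ATPase of chromatin remodelling, was called lower in 3, with a log2 fold change of −1.28 ± 0.21 at GV3h (144, 132 and 137 against 55.9, 71.5 and 42.3 CPM, adjusted p = 0.00053). Atad2b was called lower in the 3 polyA comparisons, with −0.86 ± 0.18 at GV3h (adjusted p = 0.00318). Of 12 tested acetylation writers and erasers 1 was called higher and 1 lower at polyA GV and 2 higher and 2 lower at GV3h, with Hdac3 higher and Kat6b lower in both. At polyA MII edgeR called none of them, where 18.9% of all genes were called, and 3 had an unadjusted p under 0.05. At RiboMinus MII 2 of 13 were called lower.

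Of the 10 PRC2 partners edgeR called none at polyA GV (1 had an unadjusted p under 0.05), 1 higher and 4 lower at GV3h, 1 lower at polyA MII, and 2 higher and 1 lower at RiboMinus MII, beside 7.38%, 25.2%, 18.9% and 7.3% of all genes called in either direction. From GV to MII 8 of these 10 rose in polyA control libraries and 7 in cKO, none fell, where 16.8% and 18.1% of all genes were called higher. Their median change was 1.15 and 1.02, beside −0.26 and −0.33 over all genes. In RiboMinus libraries it was −0.42 in controls and 0.14 in cKO, and Jarid2 was called lower in cKO. Over the same polyA step 4 PRC1 partners were called higher and 6 lower in controls, and 7 and 7 in cKO. Of the BET partners and P-TEFb genes 2 were higher and 2 lower in controls, and 2 and 5 in cKO. The acetylation genes gave 3 and 3 in each genotype. Other bromodomain genes gave 13 higher in each, and the opposing enzymes 5 and 4 higher, with none lower. Of 22 tested PRC1 partners 1 was called higher and 2 lower at polyA GV, 5 higher and 4 lower at GV3h, and 3 higher and 3 lower at MII, beside the same shares of all genes. At RiboMinus MII 2 of 24 were called higher and 1 lower. Their median log2 fold change was 0.14, 0.05 and 0.19 in the polyA comparisons, beside 0.08, 0.07 and 0.12 over all genes. Cbx7, which reads the PRC2 mark for PRC1, was 3.76, 1.97 and 4.99 CPM in control and 69.6, 26.4 and 64.1 CPM in cKO females at GV3h, a log2 fold change of 3.88 ± 0.82 (edgeR adjusted p = 0.00308). At polyA MII its control females differed among themselves, at 17.2, 1.58 and 0.831 CPM, and it was not called. At RiboMinus MII Cbx7 was called higher (2.66 ± 0.58, edgeR adjusted p = 0.035), with 4.09 CPM in the control female and 24.7 and 26.9 CPM in the cKO females. Scml2, a Polycomb protein known from the germline, was called lower in the 3 polyA comparisons, with log2 fold changes of −0.91, −1.26 and −0.70. Of the 8 enzymes that oppose Polycomb, 1 was called lower at polyA GV, 3 at GV3h (Bap1, Kdm6a and Kdm6b), and Bap1 was called higher at polyA MII. At RiboMinus MII 1 was called lower, Usp16.

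Among the 16 polyA females the genes with the most similar pattern to each of the 8 genes with a mean of at least 10 CPM were found by Pearson's r of log2(CPM + 1), over 9285 genes. The points share stage and genotype, so these are descriptions with no test. For Brd2 they were Tmem237 (0.976) and Taok3 (0.976), for Brd3 Crls1 (0.969) and Lsm1 (0.967), and for Brdt Atf6 (0.989) and Oas1d (0.988). For Ezh2 they were Gm26625 (0.986), which overlaps its exons on the opposite strand, and Iqca (0.979). Eed was closest to Tcl1b2 (0.968) and Ccdc47 (0.968), Suz12 to Naa50 (0.988) and Lin28b (0.983), Rnf2 to Hnrnpf (0.969) and Pom121 (0.969), and Bmi1 to Gm37240 (0.993) and Sclt1 (0.992). Within the set Ezh2 and Bmi1 were alike (0.967), as were Suz12 and Bmi1 (0.957), while Brd3 and Suz12 had r = −0.285.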

How the data were processed

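Per the labels' protocols, polyA RNA was captured on oligo(dT) beads, amplified and made into Nextera libraries, and RiboMinus libraries were made with the Ovation Solo system. The gene files deposited by the authors hold raw counts per Ensembl gene, with no normalization. The submitters' processing notes name mm10, cutadapt 2.5, FastQC 0.11.8, STAR 2.7.2a, SAMtools 1.9, HTSeq 0.9.1, R 3.5.1 and DESeq2 1.24.0. The strand setting is not given in the sources used here. The 22 rRNA files were not used. Lines that name no gene were left out of library sizes: reads in no gene were 5.85% to 14.2% of polyA and 8.34% to 12.4% of RiboMinus totals, and ambiguous reads 2.21% to 3.19% and 2.07% to 2.3%. Of 55573 gene IDs 55394 had a symbol in GENCODE M21, as did all 9 genes.

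Counts were summed per female and fitted per library type, all groups together, with edgeR 4.0.16 (filterByExpr, TMM, glmQLFit, glmQLFTest, two-sided) in R 4.3.3, for 5 genotype comparisons, 6 stage comparisons and 3 interactions. The 19242 polyA and 25425 RiboMinus genes tested set the Benjamini-Hochberg adjustment. TMM factors were 0.764 to 1.25 and 0.914 to 1.11. Where a group held 1 female (the RiboMinus MII controls, and any group of 2 with 1 left out), that female was assumed to vary like the other groups. Among 178 pairs of oocytes of the same female, no pair agreed within sampling noise (chi-square per degree of freedom 5.23 to 182). Alternatives were DESeq2 1.42.0, its size factors, library totals, 2 filters, oocytes as replicates, a limma 3.58.1 voom fit of oocytes with a random effect of female, only the groups compared, and leaving out each female but V1145, the only RiboMinus MII control. Levels per kb used the summed length of all annotated exons. Python 3.11.15 was used with numpy 2.4.6, pandas 2.3.3 and matplotlib 3.10.9.

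All 9 genes and Ezh1 are named by rule, and from each list up to 4 genes called in 1 direction in at least 3 of the 5 genotype comparisons, ranked by median change; 1 further gene of the rule and of a list is not reported here. Likeness compared genes with an average log2 CPM of at least 3. Members, lists and rules were chosen with earlier results of these data known. Other list genes named were picked after their values were seen. No source says how females were assigned, so p-values measure the spread between these females only.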

Additional observations from a re-analysis of the deposited data

Results flagged for a closer look

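Within the 54 sets of 4 to 10 oocytes in which these genes could be screened, 2 held an oocyte whose gap to its nearest neighbour took more of the set's range than chance allows in 19 of 20 sets. Chance flags about 1 in 20 sets. For Ring1 in polyA MII controls, oocyte 1 of female V853 was at 0.14 CPM, which is a single count, while the other 7 were at 0. For Bmi1 in polyA GV3h controls, oocyte 2 of female V951 was at 207 CPM, and the next lowest of the 8 was at 249 CPM.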

How the results depend on the processing

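Of 1266 recomputed values for the 99 results on single genes, 1106 kept their direction and side of the threshold, 64 changed sign without a call on either side, 63 gained a call, 33 lost one and 0 called values changed sign. The number of the 9 genes called at polyA GV was 3, and it was 1 with library totals, 5 with no filter, 5 by DESeq2, 6 with oocytes as replicates and 0 in the fit on only those groups. At polyA MII it was 1, against 2 with the female as a random effect and 4 with oocytes as replicates. At RiboMinus GV it was 0, against 2 with no filter, 3 by DESeq2, 4 with the random effect and 6 with oocytes. At RiboMinus MII it was 3, against 1 in the fit on only those groups. From GV to MII it was 8 in each polyA genotype, and 5 in each with library totals. In RiboMinus controls it was 0, against 1 with no filter, 1 by DESeq2, 4 with oocytes and 3 in the fit on only those groups. In RiboMinus cKO it was 1, against 2 by DESeq2, 5 with the random effect and 0 in the fit on only those groups. For the interaction it was 0, against 1 (no filter), 1 (DESeq2) and 2 (oocytes) in polyA, and 1 with no filter, DESeq2, the random effect and oocytes in RiboMinus. Female V1145, the only RiboMinus MII control, was not left out. Leaving out each of the other females gave 0 to 5 genes at polyA GV, 4 to 5 at GV3h, 1 to 1 at MII, 0 to 2 at RiboMinus GV and 3 to 3 at RiboMinus MII. It gave 7 to 9 from GV to MII in polyA controls, 7 to 8 in polyA cKO, 0 to 0 and 0 to 1 in RiboMinus controls and cKO, 0 to 2 in the polyA interaction and 0 to 0 in the other interactions and from GV to GV3h. The causes were not tested.

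Over the whole table, polyA GV calls numbered 1420, against 2261 with no filter, 2729 by DESeq2, 3265 with the random effect, 5908 with oocytes, 1 in the fit on only those groups and 110 to 1825 without 1 female. GV3h calls numbered 4849, against 7556 with oocytes and 2976 to 4682 without 1 female. RiboMinus GV calls numbered 8, against 1760, 1573, 1590 and 5774 under the first 4 of these settings, 5 with library totals, 5 with a mean of at least 50 counts, 3 in the fit on only those groups and 2 to 1184 without 1 female. RiboMinus MII calls numbered 1857, against 4421, 5228, 4736 and 3949, and 2007 to 3746 without 1 female. RiboMinus calls from GV to MII numbered 2 in controls, against 1148, 1545, 1338 and 5042, and 5732 in the fit on only those groups, and 0 with library totals or the higher filter. In cKO they numbered 591, against 2794, 2925, 3795 and 2770, 327 with library totals, 0 in the fit on only those groups and 6 to 1879 without 1 female. The polyA interaction gave 373, against 1118, 1121, 781 and 2287, 13 in the fit on only those groups and 61 to 1251 without 1 female, and the RiboMinus one 0, against 1072, 1127, 833 and 2837. From GV to GV3h, calls numbered 0, against 45, 16, 17 and 66 in controls and 44, 17, 31 and 86 in cKO, and the GV3h interaction gave 0, against 28 with no filter and 15 with oocytes. Library totals moved the share of calls that were higher from 47% to 74.2% at polyA GV, 49.5% to 70.5% at GV3h, 49.5% to 65.9% at RiboMinus MII, 39.5% to 21.4% and 40.5% to 20% from GV to MII in polyA controls and cKO, and 81.8% to 68.9% in the polyA interaction.

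No paired analysis was possible because every female gave oocytes of 1 genotype and 1 stage; a replicate block was not fitted. Groups held 1 to 3 females, and Ring1 counts are near 0.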
